A study of Mus musculus with 6 samples.

Results

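The miR-30 family was followed in small RNA-seq counts as the 10 mature arms mmu-miR-30a-5p, mmu-miR-30a-3p, mmu-miR-30b-5p, mmu-miR-30b-3p, mmu-miR-30c-5p, mmu-miR-30c-1-3p, mmu-miR-30c-2-3p, mmu-miR-30d-5p, mmu-miR-30e-5p and mmu-miR-30e-3p, written without the species prefix from here on. They were chosen by exact name from the 1915 mature mouse miRNAs listed in each library. The libraries came from whole brain of wild-type mouse embryos aged E15.5. Each sex had 3 libraries, made from pooled RNA of 2 to 3 individuals sexed by the gonad. No treatment or transgene was involved, and a pool is the replicate, so single embryos cannot be compared.

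Total reads on miRNAs ranged from 14802675 to 59362011 per library. Female library 2 was the deepest and stood apart, with 660 miRNAs detected against 790 to 915 in the other 5 libraries, so results that rest on it are also given without it. The brain label was met by miR-9-5p, miR-9-3p, miR-124-3p and miR-128-3p, miRNAs of neurons and neural progenitors, which together held 226050 to 267050 CPM (reads scaled to the library total) in female libraries and 180289 to 208772 CPM in male libraries. Lists for other tissues also moved with sex. The summed level of 4 skeletal muscle miRNAs was 388.1 to 1180.1 CPM in females and 5497.5 to 6138.8 CPM in males, and that of 6 epithelial miRNAs was 428.5 to 1133.1 CPM in females and 7989.5 to 8283.7 CPM in males. Hindbrain and spinal cord miRNAs (4 listed, with miR-196a-5p and miR-196b-5p at 0 in at least 1 library) lay at 8613.3 to 12290.4 CPM in females and 1658.8 to 2054.8 CPM in males. Mesenchymal and red blood cell lists were also higher in every male library (19222.5 to 23023.7 against 4469.9 to 12476.2 CPM for the former). Nearly all of the red blood cell sum was miR-486a-5p, so its difference rested on that miRNA. Of the others in that list, miR-451a was slightly higher in males by mean CPM and miR-144-3p was lower. Neither had an adjusted p below 0.05 in the edgeR test below. Leukocyte and endothelial lists overlapped, and the choroid plexus list lay at 1354.2 to 1525.0 CPM in females and 1315.5 to 1340.3 CPM in males. The part of these lists in the values below was not tested, and in bulk tissue fewer cells of a type and less RNA per cell cannot be told apart.

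A miRNA is cut from a hairpin precursor whose arms, 5p and 3p, form a duplex, and the arm retained by an Argonaute protein guides it to messenger RNAs through its seed, bases 2 to 8. In the miR-30 family the 5p arms share their seed and are the usual guides. The family is abundant in many tissues, and its best known roles are in kidney and muscle development, in fat cells and in cell differentiation. The hairpins lie in 3 genomic clusters of a pair each, so that members of one cluster can be made from one transcript.

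On mm9 (NCBIM37, GENCODE vM1), Mir30a lies on chromosome 1 from 23279108 to 23279178 and Mir30c-2 from 23298540 to 23298623, both on the forward strand, 19361 bases apart and outside any other annotated gene. Mir30b lies on chromosome 15 from 68168977 to 68169072 and Mir30d from 68172770 to 68172851, both on the reverse strand, 3697 bases apart and outside other genes. Mir30c-1 lies on chromosome 4 from 120442139 to 120442227 and Mir30e from 120445211 to 120445302, both on the reverse strand and 2983 bases apart. They are in introns of Nfyc, which encodes a subunit of the transcription factor NF-Y, and share its strand. The mature miR-30c-5p is the same molecule from Mir30c-1 and Mir30c-2, and the 3p arms alone tell these loci apart.

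RefSeq sequences (GRCm38.p6) matched 7 of the 10 members by name. They are shown because some arms differ by a single base and others share only the seed, which is in capitals.
mmu-miR-30a-5p: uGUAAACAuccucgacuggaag
mmu-miR-30e-5p: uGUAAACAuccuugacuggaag
mmu-miR-30c-5p: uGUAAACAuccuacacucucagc
mmu-miR-30a-3p: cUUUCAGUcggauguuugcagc
mmu-miR-30e-3p: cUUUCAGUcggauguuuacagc
mmu-miR-30c-1-3p: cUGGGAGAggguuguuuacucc
mmu-miR-30c-2-3p: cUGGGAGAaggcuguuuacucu
The members without a sequence here are miR-30b-5p, miR-30b-3p and miR-30d-5p.

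Counted from 1 at the 5′ end, miR-30a-5p and miR-30e-5p differ by the single substitution C13U. The 3p arms miR-30a-3p and miR-30e-3p also differ by a single one, G18A. Between miR-30c-1-3p and miR-30c-2-3p there are 3, G9A, U12C and C22U. miR-30c-5p shares its first 12 bases with miR-30a-5p and miR-30e-5p. By seed the 7 arms form 3 groups, GUAAACA for the 5p arms of miR-30a, miR-30c and miR-30e, UUUCAGU for the 3p arms of miR-30a and miR-30e, and UGGGAGA for the 3p arms of miR-30c. The number of mismatches allowed when reads were assigned to miRNAs is not given in the sources used here, and how many reads a 1-base neighbour took was not tested.

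The 5p arms made up nearly all of the family. Together the 5 of them held 6.11%, 5.53% and 6.46% of the reads in females and 5.16%, 4.96% and 5.72% in males, in the order of libraries 1, 2 and 3, which is kept throughout. The sexes overlapped in female library 2 alone, which lay below male library 3. With TMM scaling, the edgeR scaling used for the tests below, the 5p sum was 60508 to 65827 CPM in females and 45051 to 55234 CPM in males, without overlap. Of the reads on all 10 members, 97.2% to 97.6% were 5p in each library. Levels are given in CPM, which compares reads and not molecules.

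**Figure D1:**
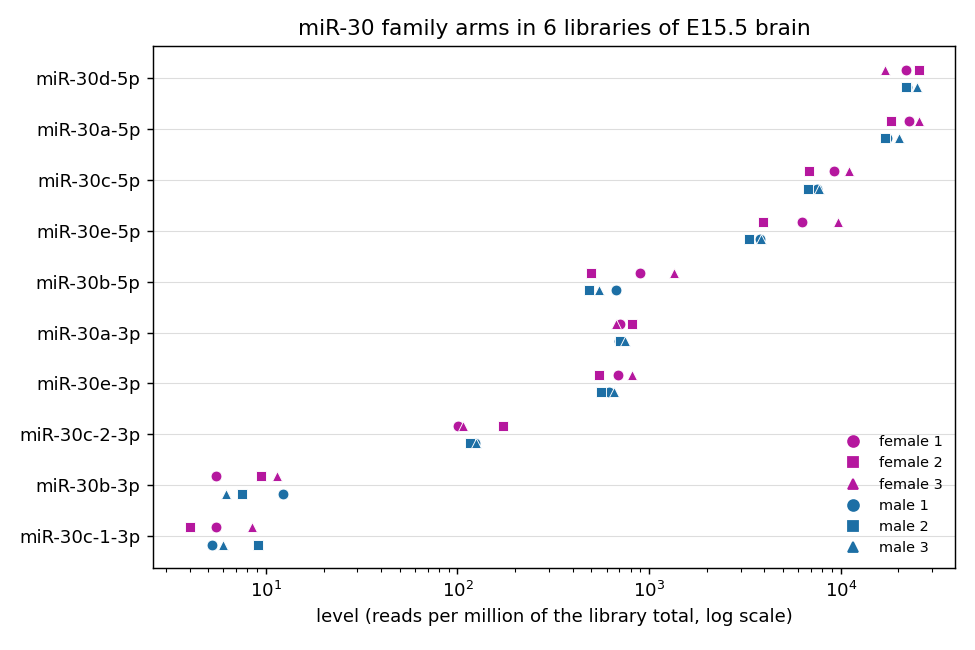
Level of each miR-30 arm (CPM of the library total, log axis) in each library, with females above and males below each line and marker shape for the replicate number. The arms span from miR-30c-1-3p, at 4.0 to 9.1 CPM, to miR-30d-5p, at 17028.5 to 25631.0 CPM.

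By mean level miR-30d-5p was the most abundant member, with 21992.0, 25631.0 and 17028.5 CPM in females and 22195.8, 22006.9 and 25026.8 CPM in males. miR-30a-5p had 22751.2, 18378.3 and 25551.7 CPM in females and 17343.1, 17091.7 and 20102.2 CPM in males. The order of these leading guides was not fixed, as miR-30a-5p lay above miR-30d-5p in female libraries 1 and 3 and below it in the other 4. Both were among the 17 most abundant miRNAs in every library, with ranks 8 to 17 for miR-30d-5p and 8 to 15 for miR-30a-5p.

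miR-30c-5p followed in every library, with 9178.3, 6798.5 and 10997.7 CPM in females and 7563.2, 6717.8 and 7692.3 CPM in males. miR-30e-5p, the guide from the Nfyc intron, had 6245.4, 3953.2 and 9675.6 CPM in females and 3788.7, 3329.4 and 3836.1 CPM in males. The lowest female library lay above the highest male library in 1 of the 10 members, miR-30e-5p, where 23.9% of the 1120 miRNAs tested had no overlap between the sexes. With TMM scaling it was 3 of the 10, where 23.8% of all had none, since miR-30a-5p (20805.9 to 26035.1 in females and 15152.3 to 19408.9 CPM in males) and miR-30c-5p (7696.6 to 11205.8 in females and 6608 to 7427.0 CPM in males) no longer overlapped. In CPM of the library total the margin of miR-30e-5p was narrow, with female library 2 just above the males. By level it ranked 22 to 34 in females and 42 to 48 in males.

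miR-30b-5p was the scarce guide, with 896.7, 494.8 and 1351.2 CPM in females and 673.9, 485.0 and 549.8 CPM in males. It lay at the level of the abundant passenger arms, the strands that are usually discarded. miR-30a-3p ranged from 673.3 to 811.8 CPM and miR-30e-3p from 550.1 to 816.4 CPM over the 6 libraries, so these 3 arms cannot be ordered beyond their spread. miR-30c-2-3p lay at 100.1 to 172.3 CPM. The lowest members, miR-30b-3p at 5.5 to 12.3 CPM and miR-30c-1-3p at 4.0 to 9.1 CPM, also overlapped, and miR-30c-1-3p rested on 81 to 400 reads per library.

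Members differed widely in how much they varied. Over the 6 libraries the highest level was 1.21 times the lowest for miR-30a-3p, 1.51 times for miR-30d-5p, 1.49 times for miR-30a-5p, 2.79 times for miR-30b-5p and 2.91 times for miR-30e-5p. Most of this lay among the females. miR-30e-5p varied 2.45-fold among the female libraries and stayed between 3329.4 and 3836.1 CPM in males, and miR-30b-5p varied 2.73-fold in females and 1.39-fold in males.

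Within the family the makeup of the guide pool shifted between female libraries. miR-30d-5p made up 36.0%, 46.4% and 26.4% of the 5p reads in females, against 43.0%, 44.3% and 43.7% in males. miR-30e-5p made up 10.2%, 7.15% and 15.0% in females and 7.35%, 6.71% and 6.71% in males. Female library 3 had the lowest share of miR-30d-5p and the highest of miR-30e-5p, and female library 2 was close to the males in both. The 4 endothelial and smooth muscle miRNAs listed were miR-126a-3p, miR-126a-5p, miR-143-3p and miR-145a-5p. They summed to 8851.6, 7714.4 and 14682.6 CPM in females and 8155.1, 6265.9 and 6030.6 CPM in males, also highest in female library 3. By mean CPM, miR-145a-5p was higher in males and the others were higher in females. The peak in female library 3 was not particular to this list. The leukocyte list summed to 43.5, 19.3 and 63.0 CPM in females and 39.7, 40.1 and 31.8 CPM in males. The part of the cells of either list in the level of miR-30e-5p was not tested.

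**Figure D2:**
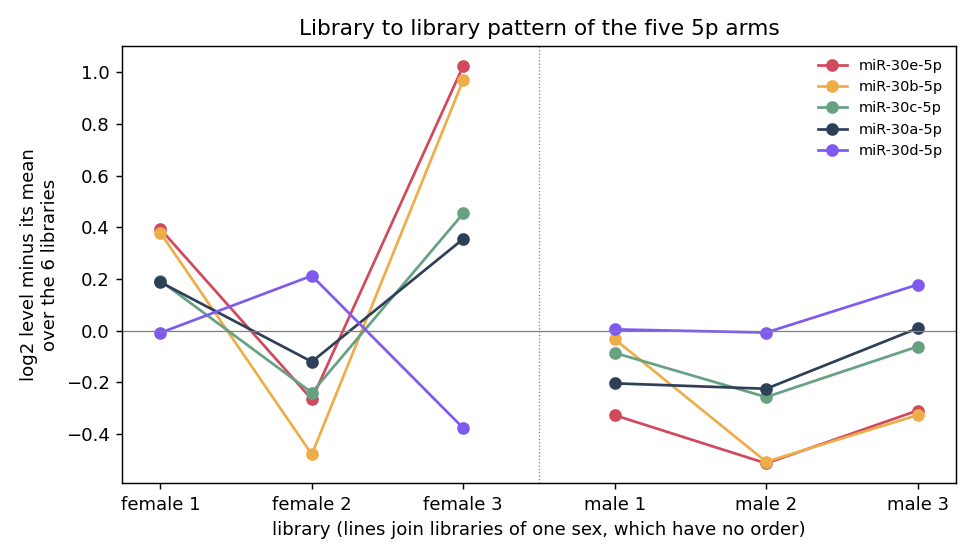
Log2 level of the 5 guide (5p) arms in each library, each minus its mean over the 6 libraries, with lines joining the libraries for ease of reading. miR-30e-5p and miR-30b-5p move together and are highest in female library 3, where miR-30d-5p is lowest.

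Agreement between a pair of members was measured as the SD over the 6 libraries of the log2 ratio of their reads, which does not depend on scaling and is small when both rise and fall together. All 45 pairs were ranked as a description. The libraries that set these values are shared by all pairs. Among the 10 pairs of 5p arms, the closest were miR-30a-5p with miR-30c-5p (SD 0.09) and miR-30b-5p with miR-30e-5p (SD 0.16). The ratio of miR-30a-5p to miR-30c-5p stayed between 2.29 and 2.70 in all libraries. Reads of miR-30b-5p per read of miR-30e-5p were 0.144, 0.125 and 0.140 in females and 0.178, 0.146 and 0.143 in males, although these arms come from different chromosomes.

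Each pair of arms was also sorted by where its hairpins lie. The 9 pairs of arms from one cluster had SDs from 0.19 to 0.77, with a median of 0.44, and the 27 pairs from different clusters had 0.09 to 0.78, with a median of 0.50. The other 9 pairs hold miR-30c-5p, which comes from the clusters on chromosomes 1 and 4 alike, and had 0.08 to 0.52, with a median of 0.35. The closest pair of guides, miR-30a-5p with miR-30c-5p, is among these, and how much of miR-30c-5p came from the neighbour of Mir30a cannot be told from its reads. miR-30b-5p and miR-30d-5p, whose hairpins are 3697 bases apart, were the ninth closest of the 10 pairs of 5p arms, with an SD of 0.77. miR-30d-5p had 24.5, 51.8 and 12.6 reads per read of miR-30b-5p in females and 32.9, 45.4 and 45.5 in males. The females spread 4.11-fold in this ratio and the males 1.38-fold, and the sexes overlapped.

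In the cluster on chromosome 1, miR-30a-3p and miR-30c-2-3p had an SD of 0.19, while miR-30a-5p and miR-30c-2-3p had 0.44. In the Nfyc cluster, miR-30c-1-3p had an SD of 0.63 with miR-30e-5p and 0.41 with miR-30e-3p, where its counts alone give about 0.12. miR-30d-5p tracked miR-30a-3p (SD 0.14) more closely than it tracked any arm of its own cluster.

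Pairs differed in how far they rested on female library 3. Without it, the SD fell to 0.44 for miR-30b-5p with miR-30d-5p and to 0.39 for miR-30e-5p with miR-30d-5p, from 0.77 for both, whereas it was 0.21 for miR-30a-3p with miR-30c-2-3p and 0.64 for miR-30c-1-3p with miR-30e-5p. The median of the pairs from one cluster was 0.44 without that library as well, but that of pairs from different clusters fell to 0.40. Without female library 2 these medians were 0.46 and 0.43, and over the males alone 0.27 and 0.21. The lower median of pairs from one cluster thus did not hold in these subsets. Without female library 2 the SDs of miR-30b-5p and of miR-30e-5p with miR-30d-5p were 0.77 and 0.82. Over the 3 male libraries alone these were 0.27 and 0.10, against 0.10 for miR-30a-5p with miR-30c-5p and 0.17 for miR-30b-5p with miR-30e-5p.

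**Figure D3:**
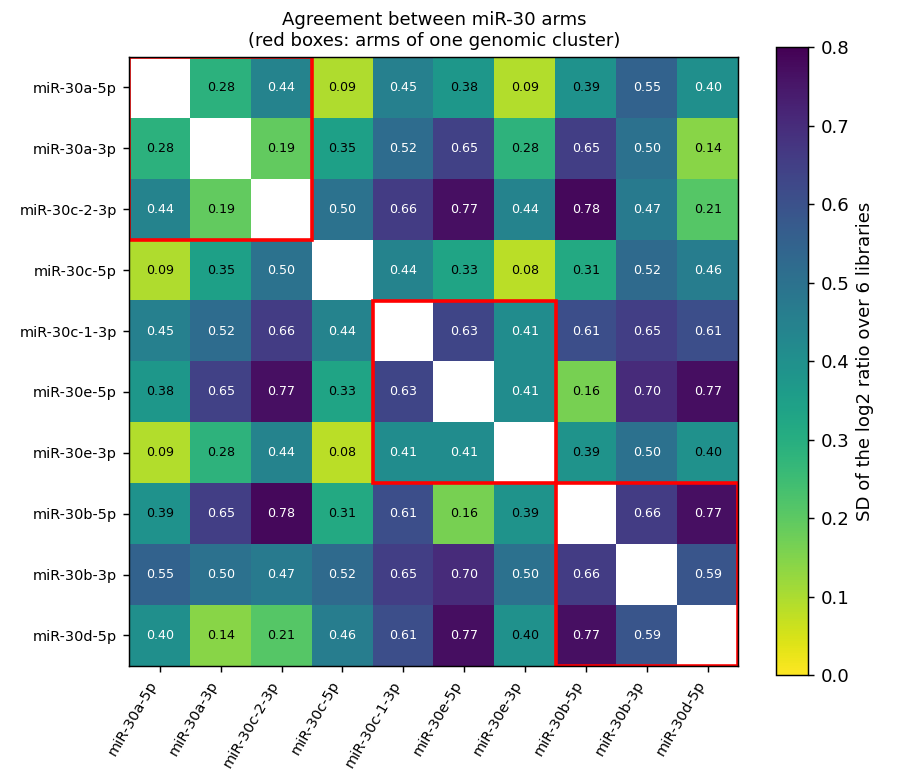
SD over 6 libraries of the log2 read ratio for each pair of miR-30 arms, with arms of a genomic cluster boxed in red. Low values (yellow) appear for miR-30a-5p, miR-30c-5p and miR-30e-3p among themselves (0.08 to 0.09), outside the boxes.

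The arm ratio, reads of the 5p arm per read of the 3p arm, differed widely between precursors and was lowest for miR-30e among the members. For miR-30e it was 9.04, 7.19 and 11.85 in females and 6.11, 5.91 and 5.85 in males. Each female library lay above each male library. For miR-30a it was 32.4, 22.6 and 38.0 in females and 25.0, 24.2 and 26.8 in males, with overlap. For miR-30b it was 163.9, 52.2 and 118.6 in females and 55.0, 64.9 and 88.4 in males, again with overlap. The 5p arm was the larger in every library for these 3 precursors, as it was in 78 of the 153 arm pairs in which each arm reached 10 reads in all 6 libraries.

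For miR-30c, whose 5p arm is shared by its loci, there were 39.5 to 103.0 reads of it per read of miR-30c-2-3p and 737.6 to 1696 per read of miR-30c-1-3p. The 3p arm of the chromosome 1 locus was thus the more abundant of the pair in every library, at 18.3, 43.0 and 12.6 reads per read of miR-30c-1-3p in females and 23.4, 12.7 and 20.8 in males. The log2 ratio of miR-30c-1-3p to miR-30c-2-3p was 0.23 higher in males than in females, with an exact permutation p of 0.9 (two-sided, n = 3 per sex, where 0.1 is the smallest p possible). It was 1 of 8 ratios between members compared in this way, none of which had an adjusted p below 0.533. This difference changed sign to -0.28 without female library 2 and to -0.04 without male library 2.

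**Figure D4:**
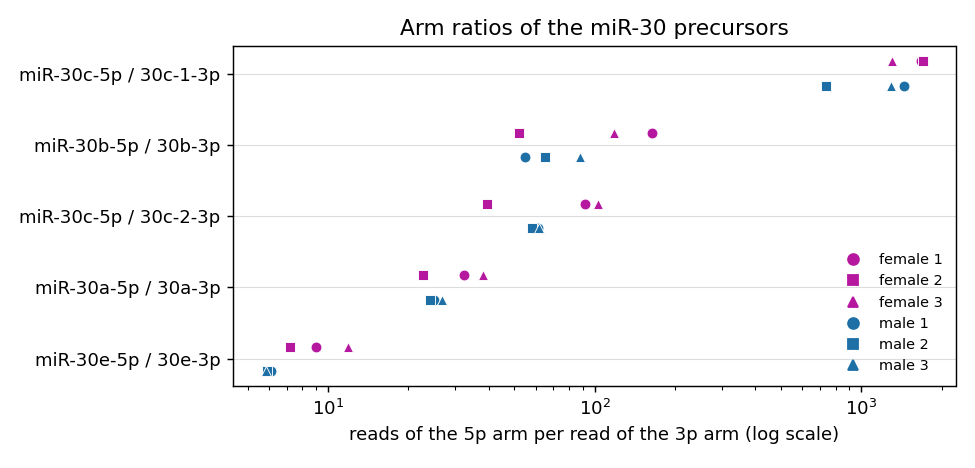
Reads of the 5p arm per read of the 3p arm for the miR-30 precursors whose 3p arm is a member (log axis), with females above and males below. miR-30d is not drawn. The miR-30e ratio is 7.19 to 11.85 in females and 5.85 to 6.11 in males.

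Arm ratios were compared between the sexes with limma on their log2 values over the 153 pairs. None had an adjusted p below 0.05 (0% of those tested), and 36 (23.5%) had an unadjusted p below 0.05. For miR-30e the log2 arm ratio of males minus that of females was -0.62 ± 0.29 (SE), with a limma adjusted p of 0.255, and an exact permutation p of 0.1, the smallest possible. It was also the 1 member ratio of 5 without overlap between the sexes, where 28.1% of all pairs had none. Leaving out female library 2, limma called 20 pairs, none of them from the miR-30 family, and gave miR-30e an adjusted p of 0.0939, where its alternatives ranged from there to 0.634. The other 4 ratios of the family had log2 differences of -0.56 to -0.25, with adjusted p from 0.467 to 0.781 in limma.

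The sexes were compared arm by arm with edgeR's quasi-likelihood test after TMM scaling, fitted on the 1120 miRNAs with at least 10 reads in all and adjusted over all of them, as log2 fold change of male over female. All 10 members passed that filter. miR-30e-5p and miR-30b-5p had an adjusted p below 0.05, both higher in females, which is 2 of 10 members where 5.27% of all miRNAs tested were called higher in females (3.21% higher in males, 8.48% in either direction). Over all miRNAs the calls were 59 higher in females and 36 higher in males, and with library totals in place of TMM they were 39 and 50. miR-30e-5p (mean 6625 ± 2880 CPM in females and 3651 ± 280 in males, SD, n = 3) was 1.96-fold higher in females by edgeR, log2 fold change -0.97 ± 0.25 (SE, edgeR adjusted p = 0.0118). miR-30b-5p (914 ± 428 and 570 ± 96.0 CPM, SD, n = 3) was 1.74-fold higher by edgeR, -0.80 ± 0.24 (SE, edgeR adjusted p = 0.0342), although its female library 2 lay below 2 of the 3 male libraries in CPM of the library total. The neural list, mostly miR-9-5p, was also higher in sum in every female library. The muscle and epithelial lists were higher in every male library. The part of these lists in the differences was not tested.

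Both calls depended on single libraries. Without female library 3, the change of miR-30e-5p was -0.61 with an adjusted p of 0.125, and that of miR-30b-5p was -0.42 with 0.359 in edgeR. Without male library 1 the changes were little altered, at -0.93 and -0.87, with edgeR adjusted p of 0.224 and 0.296. In that fit the calls over all miRNAs fell from 95 to 30. Without female library 1 the adjusted p of miR-30b-5p was 0.0762 in edgeR. Without female library 2 the calls were firmer, at 6.2e-07 and 2.5e-06 in the same test. With library totals in place of TMM neither arm was called, at 0.0531 and 0.174. With an offset for the GC content of each mature sequence, which is 40.9% in miR-30e-5p, its log2 fold change was -0.70 and its adjusted p 0.103. miR-30b-5p, with no sequence here, was left without that offset. Over the 16 alternatives the adjusted p ranged from 6.2e-07 to 0.224 for miR-30e-5p and from 2.5e-06 to 0.359 for miR-30b-5p.

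The remaining guides differed less. The change was -0.41 ± 0.23 (SE) for miR-30c-5p and -0.41 ± 0.25 for miR-30a-5p, with edgeR adjusted p of 0.352 and 0.424. That of miR-30d-5p was -0.04 ± 0.26, which turned to 0.10 with library totals. The 3p arms had log2 fold changes from -0.28 for miR-30e-3p to 0.09 for miR-30c-1-3p, and none had an adjusted p below 0.480. The standard error was 0.67 for miR-30b-3p and 0.81 for miR-30c-1-3p, so a 2-fold difference, 1 on the log2 scale, lies within 2 standard errors of 0 for these arms.

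Of the 10 members, 9 had a negative log2 fold change with a median of -0.25, against 50.9% of all 1120 miRNAs with a median of -0.02. With library totals, 8 of the 10 were negative with a median of -0.11, where the median of all was 0.11.

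**Figure D5:**
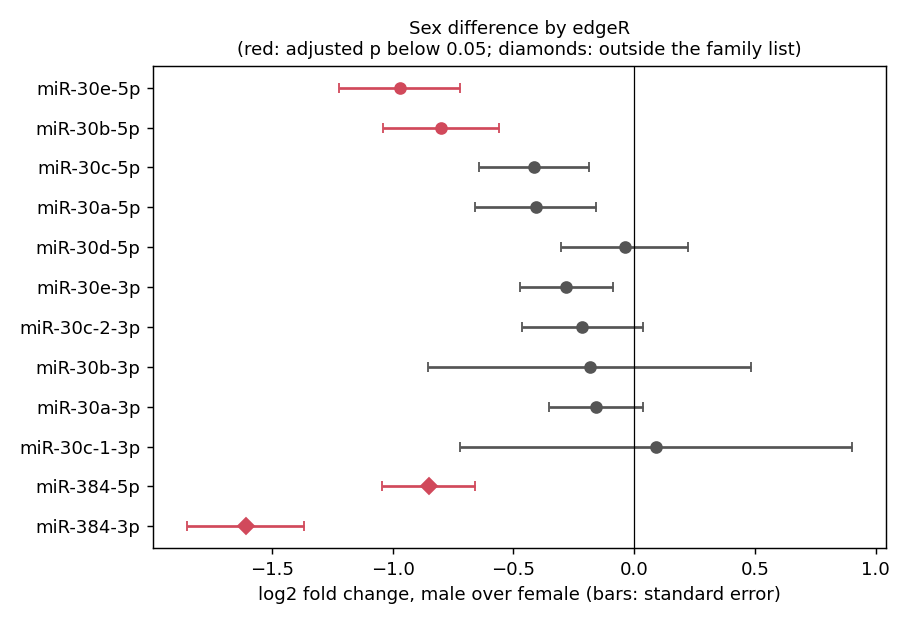
Log2 fold change of male over female by edgeR for the 10 members and for the arms of miR-384 (diamonds), with standard errors; red marks an adjusted p below 0.05. The red points are miR-30e-5p (-0.97), miR-30b-5p (-0.80), miR-384-5p (-0.85) and miR-384-3p (-1.61).

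Among all mature RefSeq sequences, the seed of the miR-30 5p arms was also found in miR-384-5p, which is outside the family list. Its sequence is shown for the shared seed, in capitals.
mmu-miR-384-5p: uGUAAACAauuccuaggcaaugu
Its precursor lies on chromosome X of mm9 from 102539621 to 102539708 on the reverse strand, outside any other annotated gene.

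miR-384-5p had 543.3, 548.4 and 545.1 CPM in females and 355.8, 327.6 and 310.6 CPM in males. In CPM of the library total the females lay within 1.01-fold of each other, well apart from the males, unlike miR-30e-5p and miR-30b-5p in the same libraries. That narrow spread belongs to this scaling, as the TMM factors of the females were 1.009, 0.883 and 0.981. With TMM the sexes did not overlap either. miR-384-5p was 1.80-fold higher in females, -0.85 ± 0.19 on the log2 scale (SE, edgeR adjusted p = 0.00435). Its other arm, miR-384-3p, had 419.2, 225.6 and 445.7 CPM in females and 104.5, 147.6 and 128.9 CPM in males, again without overlap. Its change was -1.61 ± 0.24 (SE, edgeR adjusted p = 4.3e-05). Both have a low GC content, 34.8% and 27.3%. With the GC offset, miR-384-5p had -0.44 and an adjusted p of 0.353, while miR-384-3p had -0.77 and 0.0348 in edgeR. Without male library 1 the adjusted p of miR-384-5p was 0.0757, and over all alternatives it ranged from 7.0e-06 to 0.353.

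The other miRNAs with the family name were scarce. miR-30d-3p, the passenger of the most abundant guide, had 1.5 to 5.3 CPM (43 to 129 reads), or 4121 to 14426 reads of miR-30d-5p per read. miR-30f, annotated on the strand opposite Mir30e, had 1.8 to 5.8 CPM. miR-6958-5p, which shares the seed of the miR-30c 3p arms, had 0 reads in all libraries.

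By the same SD of the log2 ratio, the miRNAs closest to the sum of the 5p arms, out of the 451 that reached 100 reads in all libraries, were miR-9-5p (SD 0.06), miR-185-5p (0.06), miR-124-5p (0.06), miR-331-3p (0.09) and miR-409-5p (0.10), where the median of all was 0.47. Closest to miR-30e-5p, of 455, were miR-21a-5p (SD 0.08), miR-126a-5p (0.09), miR-154-3p (0.12), miR-872-3p (0.14) and miR-22-3p (0.14). miR-21a-5p had 2635.9, 1728.2 and 3681.2 CPM in females and 1516.2, 1380.3 and 1479.9 CPM in males, so it too was highest in female library 3. miR-30b-5p was eighth by closeness to miR-30e-5p, whereas the opposite arm miR-30e-3p was at position 86 and miR-30d-5p at position 260.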

How the data were processed

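The authors extracted RNA from embryonic brain, pooled it, made TruSeq small RNA libraries and trimmed reads with cutadapt 1.15. Reads went through Bowtie 1.2.1 to mm9 and miRBase version 21, and miRDeep2 gave the count of each known miRNA. The authors deposited a raw read count for each mature miRNA and library, with no normalization and no molecular identifiers, so counts include copies of a molecule and errors between libraries cover pools.

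Samples were grouped by sex from their titles. R 4.3.3 with edgeR 4.0.16 (quasi-likelihood test, TMM, at least 10 reads in all), limma 3.58.1 (log2 arm ratios with 0.5 reads added) and DESeq2 1.42.0 were used, with Benjamini-Hochberg adjustment at 0.05. The RUVr factor was written out from edgeR deviance residuals. The GC offset is a loess curve (span 0.75) in each library, and 84.9% of the miRNAs tested had a sequence. Named miRNAs are the members, those that share their name or seed, and the 5 closest patterns. The members and lists were chosen with earlier results of these data known. The tests were checked on simulated data. The paper's RNA-seq and RT-qPCR data are not analysed here.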

Additional observations from a re-analysis of the deposited data

How the results depend on the processing

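The number of members with an adjusted p below 0.05, 2 in the reported analysis, was 0 with library totals and 1 with upper quartile scaling. It was 1 without a filter, 1 with at least 10 reads in every library and 1 with the GC offset. The member called with the GC offset was miR-30b-5p, which had no sequence and so received no offset. The number was 2 with DESeq2 and 4 with DESeq2 and 1 RUVr factor (miR-30a-5p and miR-30c-5p were added, at 0.0402 and 0.0335). The paper's methods also used DESeq2 and RUVr, without stating the number of factors. With a library left out the number was 0 to 2. The causes were not tested. Over all 1120 miRNAs tested, the 95 calls became 89 with library totals, 91 with upper quartile scaling and 72 with the GC offset. They were 104 of 1163 without a filter and 97 of 550 with at least 10 reads in every library. They were 132 with DESeq2, 216 with DESeq2 and 1 RUVr factor, 189 with edgeR and 1 RUVr factor, and 30 to 203 with a library left out. The median log2 fold change of all miRNAs, -0.02, was 0.11 with library totals, 0.24 and 0.22 with the RUVr factor, -0.13 with the GC offset and -0.15 with at least 10 reads in every library, and that of the members stayed below it in each. Arm ratio calls ranged from 0 to 20 with a library left out, and those of the family stayed at 0 in every alternative run on them. The fold change of miR-30d-5p, -0.04, turned to 0.10 with library totals, 0.087 and 0.0598 with 1 RUVr factor in DESeq2 and edgeR, 0.0493 without a filter, and -0.20 to 0.18 with a library left out. miR-30c-1-3p, at 0.09, turned to -0.17 with the GC offset and -0.21 with the replicate block and GC offset, and was -0.26 to 0.41 with a library left out. In those fits miR-30b-3p was -0.43 to 0.0109, miR-30c-2-3p -0.35 to 0.16, the log2 arm ratio of miR-30c-5p to miR-30c-2-3p -0.68 to 0.0074 and the ratio of the miR-30c 3p arms -0.28 to 0.61. The summed 5p level, -7507.1 CPM as male minus female, was -12376.7 with TMM and -10033.2 to -5358.7 with a library left out. Same-numbered libraries correlated at -0.08, 0.03 and 0.16 over 553 miRNAs in their deviations from the group means. Not every library correlated best with its own number. With 3 libraries per sex these values cannot tell whether the numbers pair the libraries. With a replicate block 92 miRNAs and 2 members were called, and 108 and 2 with the GC offset added. The SDs without a female library or over males alone, and the count of members without overlap with TMM (3, against 1), were added after seeing the data. Counting error in the log2 ratios of miR-30b-3p and miR-30c-1-3p to abundant arms was about 0.10 and 0.12, below their spread between libraries.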
